A study of Mus musculus with 30 samples.

Results

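Blood and draining lymph node were compared between mice with severe and with mild collagen-induced arthritis (CIA), taking only the CIA libraries of the pilot matrix that covered 8 organs. The members were 7 libraries of the 30 in the series, holding 1700 of its 8282 cell barcodes, and they were chosen by the organ and the arthritis score on the label. Blood came from mouse S2, with a score of 8, and from mice S6 and S7, with scores of 3 to 4 and 3. Lymph node came from mice S1 and S2, both with a score of 8, and from mouse S7, with a score of 3, for which 2 libraries were made. Their titles end in 2CIA and CIA, suffixes whose meaning the labels do not give. All other CIA libraries used here end in 2CIA, whereas those of healthy mice H6 and H7 end in CIA, H3 in 2CIA, and H4 has both, so suffix and health are partly confounded.

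All mice were male DBA1/J animals aged 8 to 12 weeks. The CIA mice received 100 µg of bovine type II collagen in complete Freund's adjuvant near the tail base and a boost of the same amount in incomplete adjuvant on day 20, and the score sums the swelling graded in each limb. Healthy mice H3, H4, H6 and H7, injected with buffer alone, gave 10 libraries of the same organs and are set beside the CIA values as background. Mice were killed once a score of 8 to 12 was reached or after 60 days, and the labels give no day, so score and time after immunization cannot be told apart. Blood cells were mononuclear cells from a density gradient, which removes most mature neutrophils and red cells, and remaining red cells were lysed, so neutrophil and globin transcripts of blood are those left after both steps. The draining lymph nodes were frozen, thawed and strained, and their red cells were lysed too. Mice S2 and S7 stand in both organs, so blood and node are not independent comparisons. With 1 mouse against 2 in each organ no test was made, and every statement below is a description of these mice.

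Collagen-induced arthritis is a joint disease in which an immunization against cartilage collagen raises T cells and antibodies in the draining nodes, and neutrophils and monocytes from the blood then enter the joints. Neutrophils form in the marrow and load their secondary granules with lactoferrin (Ltf), cathelicidin (Camp) and neutrophilic granule protein (Ngp) during maturation. Genes for these granule proteins are therefore transcribed mostly in cells that have not finished maturing, whereas S100a8, S100a9 and Retnlg are abundant in mature neutrophils. In the lymph node, T cells and B cells make up nearly all cells.

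Seq-Well, a method that captures single cells in small wells with barcoded beads, gave the transcript counts. The deposited values are sums over each barcode and its 12 nearest neighbours, so barcodes of a library share transcripts and can hold identical profiles. Here they are called units, they were added up per mouse and organ, and all levels are units per 1000000 units of that mouse and organ, written UPM. The 3 blood libraries held 62 to 173 barcodes and 409744 to 1854324 units, and the 4 node libraries held 272 to 454 barcodes and 2110658 to 3319362 units. Of the blood barcodes, 22 to 71 profiles per library were distinct, and no barcode sequence was shared between libraries. The score 8 blood library stood apart before any gene was compared. It listed 9270 genes above 0 against 2705 and 3554 in S6 and S7, and 52.4% of its genes never exceeded a value of 1, against 5.25% and 12.8%. Globin genes took 38.6% of its units against 7.35% and 6.1%. A gene listed at 0 in S6 or S7 may therefore differ from S2 through what each library retained as well as through its level, and the part of this in the results was not tested. Fewer cells of a type and less RNA per cell cannot be told apart in sums of this kind.

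Genes were kept where the 3 CIA mice of an organ averaged 25 UPM or more, which left 3908 in blood and 5112 in node. A gene was counted as past the gap when every score 8 mouse was at least 2-fold above, or below, every milder mouse after adding 10 UPM. In blood, 115 genes (2.94%) were past the gap with S2 higher and 1034 genes (26.5%) with S2 lower. In node, 64 genes (1.25%) were higher and 42 genes (0.822%) lower at score 8. The median log2 difference of score 8 minus milder mice was -0.52 over the kept blood genes and -0.02 over the kept node genes. The blood split rested on the scaling, with 488 genes higher and 785 lower when globin genes were left out of the totals, and 1107 higher and 462 lower after scaling by a trimmed mean of log ratios, which put the median log2 difference at 0.12 and 0.96. Of all kept genes, 11.4% were then higher and 18.4% lower without globin genes, and 25.9% higher and 10.8% lower by the trimmed mean, and lists under those scalings are to be read against these shares. Blood genes are read below against these 3 scalings.

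Distances between libraries give a scale for these counts. In blood, S2 was at least 2-fold apart from S6 in 75.1% and from S7 in 63.1% of the genes with a mean of 25 UPM or more in the pair, and S6 and S7, the mice of like score, were apart in 59.6%. In node, the 4 pairs of a score 8 with a score 3 library were apart in 12.2% to 20.8%. S1 and S2, both with a score of 8, were apart in 21.4%, and the 2 libraries of mouse S7 in 19.2%. No node pair across scores lay farther apart than S1 and S2, and 1 of the 4 lay farther apart than the libraries of S7. The 2 libraries of healthy mouse H4 were apart in 34.5% in node, more than any CIA node pair, and in 44.2% in blood.

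**Figure D1:**
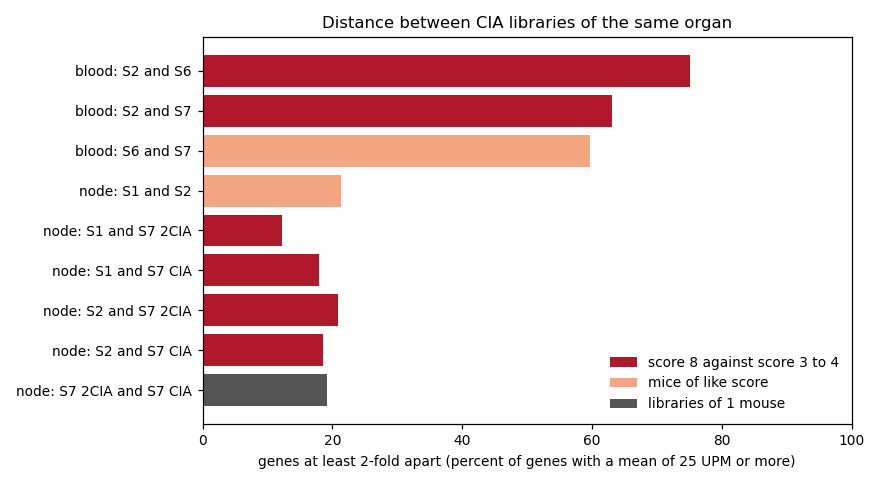
Percent of genes at least 2-fold apart between each pair of CIA libraries of the same organ, coloured by whether the pair crosses scores, joins mice of like score or joins the 2 libraries of mouse S7. The blood pairs lie between 59.6% and 75.1%, and the 4 node pairs across scores lie below the 21.4% of S1 and S2.

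Genes with the same direction in both organs were kept apart. Of 3326 genes kept in both, 2 (0.0601%) were past the gap with score 8 higher in both, Ngp and Hbb-bs, and 2 (0.0601%) with score 8 lower in both, Tent5a and Pttg1. A further 1 gene was past the gap in opposite directions, lower in blood and higher in node, and it had no symbol. Without the rule of 2-fold, 91 genes were higher and 439 lower in both organs with no overlap between the score groups, where 10.8% of kept blood genes lay above and 41.5% below without overlap and 25.5% and 28.4% of kept node genes did, so these counts are no result about shared genes. Ngp was at 0 in the node of S7 and was kept there through the score 8 mice, so in node it could count only as higher.

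Ngp is a cathelicidin-related protein of neutrophil granules. In blood it stood at 1828 UPM in S2, 0 in S6 and 112 in S7, and at 0 to 36.1 in the 4 healthy mice. In node it stood at 121 for S1, 31.3 for S2 and 0 for S7, in both of that mouse's libraries, and at 0 in every healthy mouse. In each organ all score 8 values lay above those of the milder and the healthy mice. The node values were small in transcripts: 52 of 454 barcodes of S1 held Ngp, with a largest value of 29, and 66 of 272 barcodes of S2, none above 1.

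Hbb-bs encodes an adult beta globin. It reached 294910.2 UPM in the blood of S2 against 59642 in S6 and 50183 in S7, and 545 and 419 in the nodes of S1 and S2 against 172 in S7. Healthy mice ran from 26965 to 373090.2 in blood and from 81.4 to 108279.7 in node, so in both organs the score 8 mice lay inside the healthy range. With the 2CIA library of S7 alone, at 215, Hbb-bs was no longer past the gap in node.

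Tent5a encodes a poly(A) polymerase that lengthens the tails of mRNAs for secreted proteins. It stood at 28 UPM in the blood of S2, 205 in S6 and 156 in S7, and at 19.4, 0 and 62.1 in the nodes of S1, S2 and S7. In blood the milder mice lay above the healthy mice, which reached 51.2, and S2 lay among them. Pttg1, the securin that holds sister chromatids together until anaphase, followed the same order, with 51.2, 154 and 127 in blood and 34.2, 30.8 and 87.1 in node. Healthy mice held 0 to 49.2 in blood and 14.8 to 74.2 in node. The S7 libraries differed for Pttg1, at 122 and 37.8 UPM, and only the first was 2-fold above S1 and S2. After scaling by a trimmed mean of log ratios the log2 difference of Pttg1 in blood was 0.014 in place of -1.29.

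Healthy mice of the same organ give a second scale. Of the 115 blood genes with S2 higher, S2 lay above all 4 healthy mice for 84, and of the 1034 with S2 lower it lay below all of them for 623. For 704 of those 1034 genes S6 or S7 lay above all healthy mice. Of the 64 node genes higher at score 8, both score 8 mice lay above all healthy mice for 31, and of the 42 lower ones both lay below for 10, while S7 lay above all healthy mice for 31. A gene listed at 0 in a healthy node, such as Hspa1b, Ighg1 or Slpi, cannot have score 8 mice below all healthy ones, so the last 2 counts are not to be set against each other. All these genes were picked because the score 8 mice lay apart from the milder ones. The same shares over all kept genes were not counted, and the blood counts were made on the first scaling only.

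**Figure D2:**
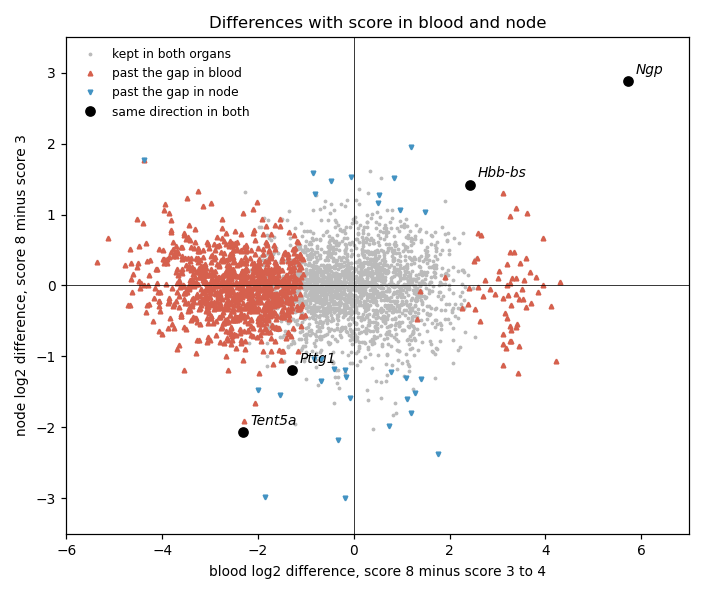
Log2 difference of score 8 minus milder mice in blood (horizontal axis) and node (vertical axis) for the 3326 genes kept in both organs, each point a gene. Most blood genes past the gap lie to the left near a node difference of 0, and 4 genes, drawn black, are past the gap in the same direction in both.

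Some genes of neutrophil granules were higher in the blood of S2. Of 11 kept granule precursor genes, Ltf, Camp, Ngp and Chil3 were past the gap with S2 higher, 7 were not, and none was lower. All 4 were at 0 in S6, and Ltf and Chil3, at 0 in S7 too, passed the filter on low values through S2 alone and could count only as higher, so the count itself says little beside the 2.94% of all blood genes. Of the 5 granule precursor genes above 0 in all 3 mice none was past the gap, and their median log2 difference was 0.27. Their first 3 members were printed with their promoters because they lie close together in the genome and carry the difference. The 250 bases before the RefSeq transcription start (build GRCm38.p6) lie at chr9:109849457-109849706 on the minus strand for Camp, chr9:110419558-110419807 on the plus strand for Ngp and chr9:111019042-111019291 on the plus strand for Ltf, so that the 3 windows span 1169835 bases of chromosome 9. The window of Hbb-bs, chr7:103827929-103828178 on the minus strand, is printed beside them. Capitals mark matches, on either strand, to the C/EBP-type motif TTGCNNAA and the GATA-type motif AGATAA.
Ngp: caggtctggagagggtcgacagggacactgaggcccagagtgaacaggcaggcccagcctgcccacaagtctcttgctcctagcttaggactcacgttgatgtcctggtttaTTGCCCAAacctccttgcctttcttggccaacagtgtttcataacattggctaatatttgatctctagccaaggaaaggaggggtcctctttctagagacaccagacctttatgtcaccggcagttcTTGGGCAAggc
Camp: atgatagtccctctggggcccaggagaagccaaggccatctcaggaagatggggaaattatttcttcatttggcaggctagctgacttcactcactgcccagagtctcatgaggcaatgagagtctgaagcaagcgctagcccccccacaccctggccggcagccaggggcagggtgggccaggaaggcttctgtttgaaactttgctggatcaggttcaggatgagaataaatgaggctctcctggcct
Ltf: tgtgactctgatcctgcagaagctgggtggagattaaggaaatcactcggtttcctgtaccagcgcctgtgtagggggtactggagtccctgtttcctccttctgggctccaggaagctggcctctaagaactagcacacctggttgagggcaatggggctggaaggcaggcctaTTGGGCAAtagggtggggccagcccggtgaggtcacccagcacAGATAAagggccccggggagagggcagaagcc
Hbb-bs: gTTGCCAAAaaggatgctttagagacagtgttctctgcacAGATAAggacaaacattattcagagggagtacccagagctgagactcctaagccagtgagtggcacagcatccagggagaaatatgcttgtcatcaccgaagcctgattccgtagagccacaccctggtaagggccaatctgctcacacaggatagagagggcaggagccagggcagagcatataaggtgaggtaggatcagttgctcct
The C/EBP-type letters were found in 9.56% and the GATA-type letters in 9.99% of all 32851 RefSeq windows of this length. Ngp held 2 C/EBP-type matches, Ltf held 1 match of each type, Hbb-bs held 1 of each, and Camp held neither. A match describes the letters alone.

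Ltf, the iron-binding lactoferrin, stood at 545 UPM in the blood of S2 and was listed at 0 in S6, S7 and 3 of 4 healthy mice, the fourth holding 8.2. Camp, the cathelicidin precursor of an antimicrobial peptide, stood at 1352 in S2, 0 in S6, 69.1 in S7 and 0 to 50.4 in healthy mice. Chil3, a chitinase-like protein of myeloid cells, stood at 81.4 in S2 and 0 in S6 and S7. Saa3, an acute-phase serum amyloid gene chosen after its values were seen, stood at 129 in S2 and at 0 in all 6 other mice. Each of these genes set S2 apart from the milder mice and from the healthy ones. In S2, Ngp was above 0 in 98 of 173 barcodes with a largest value of 184, Camp in 110 with a largest value of 145, and Ltf in 50 with a largest value of 65. Of the node mice, only S2 listed Camp, at 12.3, and none listed Ltf.

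The summed level of mature neutrophil genes did not split by score. It came to 66649.6 UPM for S2, 7654 for S6 and 79223 for S7, with 2661 to 6446 in healthy blood, so S2 lay between the milder mice and all 3 lay above healthy mice. The neutrophil markers, a list that holds Ngp, Camp and Ltf too, summed to 64414, 5235 and 74116. S100a8, a subunit of calprotectin, stood at 43214 in S2 and 49101 in S7 but 3553 in S6. Mmp8, a neutrophil collagenase, stood at 295, 331 and 0, and Retnlg at 1447, 2364 and 271 in S2, S7 and S6. Among 26 kept genes of mature neutrophils, 3 were past the gap with S2 higher, Cd177, Wfdc21 and Ifitm6, and 1, Sorl1, with S2 lower, against 2.94% and 26.5% of all blood genes. Cd177 was at 0 in S6 and S7 and could count only as higher, and of the 9 genes above 0 in all 3 mice 1 was higher and 1 lower. Their median log2 difference was 1.44, and 6 of 26 were higher without globin genes in the totals and 15 of 27 by the trimmed mean, with none lower. Ifitm6 stood at 937, 439 and 331 in S2, S6 and S7 and at 10.7 to 124 in healthy mice.

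The granule genes were also summed over barcodes rich in neutrophil transcripts. Blood barcodes with at least 5% of their units in S100a8 and S100a9 were taken, a choice made after the values were seen. These were 40 of 173 barcodes in S2, 20 of 97 in S7 and none of 62 in S6. Within them Ngp stood at 7934 UPM in S2 and 513 in S7, Camp at 5965 and 0, and Ltf at 2491 and 0, while S100a8 stood at 151239 and 189273, S100a9 at 51377 and 86345 and Hbb-bs at 245609 and 41844. In healthy mouse H4, 5 barcodes passed the same limit and held 3339 of Ngp, 4518 of Camp and 786 of Ltf UPM. Healthy mouse H7, with 15 such barcodes, held 478, 455 and 0. Within these barcodes S2 held more of each of the 3 genes than S7, as did healthy mouse H4. The barcodes of S2 and S7 differed in their S100 and globin levels too, the genes had been chosen for their gap, and the part of the neutrophil share in the difference was not tested.

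Globin and several other red cell genes were higher in the blood of S2 by all 3 scalings. Of 17 kept globin and red cell genes, 8 were past the gap with S2 higher and none lower, against 2.94% of all blood genes higher. Without globin genes in the totals 11 of 18 were higher and by the trimmed mean 16 of 19, against 11.4% and 25.9% of all, and none was lower. Among these, Bpgm, Fech and Ube2l6 were at 0 in S6 and S7, were kept through S2 alone and could count only as higher. Of the 10 above 0 in all 3 mice, 4 were past the gap, against 0.584% of all such blood genes. Hba-a1, an alpha globin, stood at 55406 UPM in S2, 5472 in S6 and 5112 in S7. Alas2, which starts heme synthesis in red cell precursors, stood at 287, 117 and 77.4. Healthy mice held 5777 to 101118 of Hba-a1 and 35884 to 516927 of the summed erythroid markers, against 379008 for S2, 70451 for S6 and 58511 for S7. The score groups did not overlap, and S2 lay within the healthy range. Globin genes are near-identical copies, so the split of reads among them is uncertain. Pf4, a platelet chemokine, stood at 138 in S2 and 0 in S6 and S7, and the summed platelet markers at 203, 0 and 0 against 0 to 23.2 in healthy mice.

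**Figure D3:**
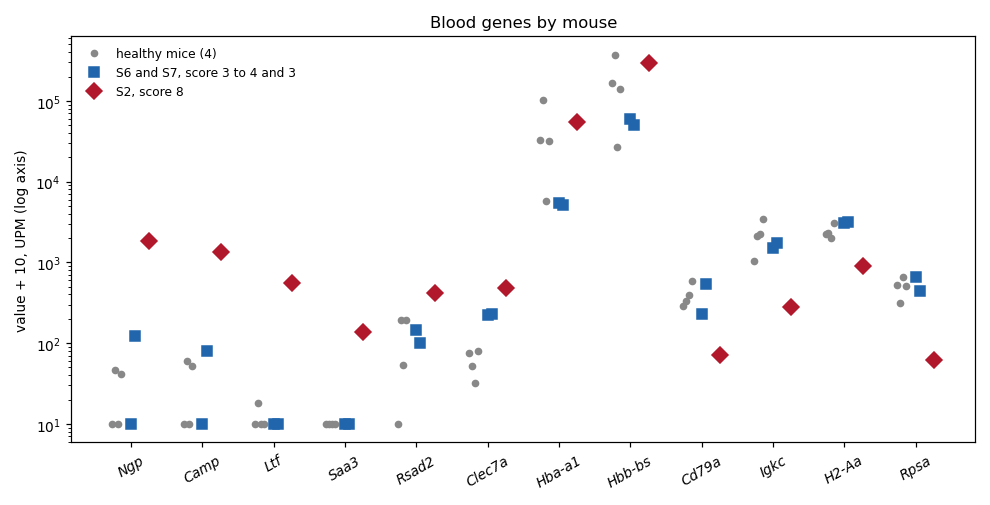
Value plus 10 UPM on a log axis for 12 genes in the blood of S2 (score 8), S6 and S7 (score 3 to 4 and 3) and the 4 healthy mice, each point a mouse. S2 lies above every other mouse for Ngp, Camp, Ltf and Saa3, within the healthy range for Hba-a1 and Hbb-bs, and below every other mouse for Cd79a, Igkc, H2-Aa and Rpsa.

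Most other blood genes with S2 higher were low or absent in the milder mice. Of the 115, S6 and S7 were both listed at 0 for 71, and 12 were above 0 in all 3 mice. Those 12 were 6 globin genes, Alas2, Ifitm6, Rsad2, Clec7a, Lamp1 and Tmem258. Clec7a, the receptor dectin-1 for fungal glucans on myeloid cells, stood at 467 UPM in S2, 209.9 in S6 and 219 in S7, and at 22.5 to 70.7 in healthy mice, and so was above health in all CIA mice and further above at score 8. Rsad2, the antiviral enzyme viperin, stood at 405, 137 and 90.6, with 0 to 184 in healthy mice. The largest gaps outside neutrophil genes were Sys1 and Ppib, at 189 and 177 in S2 and 0 in S6 and S7. Like all 71 genes at 0 in both milder mice, Sys1 and Ppib were kept through S2 alone and could count only as higher. In healthy mice Sys1 ran from 0 to 64.1 and Ppib from 0 to 94.6. Both are genes of the secretory pathway that most cells use, and S6 and S7 also listed Psmb10, a subunit of the immunoproteasome, at 0.

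Genes induced by interferon set the CIA mice apart from healthy mice more than they set the scores apart. Their sum was 8330.3 UPM for S2, 7270.4 for S6 and 6143 for S7 against 1191 to 2796 in healthy blood, and 5323, 4074 and 4319.7 in the nodes of S1, S2 and S7 against 1728 to 2439. Ifi27l2a stood at 2047, 1743 and 1539 in blood, with 59.8 to 277 in healthy mice, and at 1485, 929 and 1063 in node, with 133 to 336. In both organs all CIA values lay above all healthy values, and in node the score groups overlapped. Of 34 kept genes in blood 3 were past the gap with S2 higher (Rsad2, Zbp1 and Eif2ak2) and 2 with S2 lower (Ly6a and Irgm1), against 2.94% and 26.5% of all blood genes. Zbp1 and Eif2ak2 were at 0 in S6 and S7 and could count only as higher, and of the 19 genes above 0 in all 3 mice 1 was higher and 2 lower. Of 38 in node 1, Ifi35, was higher. By the scaling without globin genes 8 of 36 were higher and none lower in blood, and by the trimmed mean 16 of 37. Of the related Ifi200 family, 3 of 7 kept genes, Ifi203, Aim2 and Mndal, had S2 lower in blood, against 26.5% of all blood genes, and none by the other 2 scalings.

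Most kept B cell identity genes were lower in the blood of S2 on the first scaling, and their split rested on the scaling. Of 18 kept B cell identity genes, 12 were past the gap with S2 lower and none higher, against 26.5% of all blood genes, and their median log2 difference was -1.52 against -0.52 over all. Without globin genes in the totals 7 of 21 were lower and 1 higher, and by the trimmed mean 3 were lower and 3 higher of 20 with a median of -0.07 against 0.96 over all kept genes. Cd79a, the signalling chain of the B cell receptor, stood at 62 UPM in S2, 217 in S6 and 522 in S7, with 276 to 571 in healthy mice. Bcl11a, a transcription factor of early B cells, stood at 13.5, 215 and 130.1. S2 lay below both milder mice for each. The summed B cell markers came to 511, 1418 and 2843 against 1089.7 to 4097 in healthy blood.

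MHC class II and antibody genes were counted next. Of 12 kept MHC class II genes 7 had S2 lower past the gap, against 26.5% of all blood genes. Without globin genes in the totals 5 of 12 were lower, against 18.4% of all. By the trimmed mean 1 of 12 was lower and 2 were higher, against 10.8% and 25.9%, so the direction turned. H2-Aa, the alpha chain of the class II molecule I-A, stood at 903 UPM in S2, 3019 in S6 and 3139.7 in S7, with 2005 to 3046 in healthy mice. H2-DMb1, part of the molecule that loads peptides onto class II, stood at 70.1, 442 and 359. Of 13 kept antibody chain and plasma cell genes 6 had S2 lower, against 26.5% of all blood genes, and the direction turned with the scaling, with 5 lower and 2 higher of 15 without globin genes in the totals and 3 lower and 4 higher of 15 by the trimmed mean. Igkc, the constant part of kappa light chains, stood at 273, 1494 and 1744 against 1016 to 3428 in healthy mice, and Ighm, the mu heavy chain of naive B cells, at 152, 1032 and 715. Iglc2 and Iglc3, lambda constant regions that are near-identical and may share reads, had larger gaps still, at 164, 1286 and 1016 for Iglc2. None of these lists held a member with S2 higher on the first scaling.

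T cell markers overlapped between the scores in blood. Their sum stood at 308 UPM in S2, 237 in S6 and 504 in S7, all below the 513 to 2267 of healthy blood, and 11 of 12 T cell markers were above 0 in S2, 1 in S6 and 3 in S7, in the order of the numbers of genes these libraries list. Of 7 kept T cell receptor and signalling genes 2 (Trbc2 and Cd2) had S2 lower, near the 26.5% of all blood genes, none of 7 did without globin genes in the totals, and by the trimmed mean 2 of 9 were higher. The summed monocyte markers stood at 12956, 11842 and 3976, against 443 to 3292 in healthy blood, so all CIA mice lay above the healthy ones, and S2 lay above both milder mice but close to S6. Of 8 kept monocyte markers 1 was past the gap with S2 higher, against 2.94% of all blood genes. Without globin genes in the totals 3 of 8 were higher and by the trimmed mean 7 of 9, against 11.4% and 25.9% of all. Summed markers of NK and cytotoxic cells stood at 291, 2504 and 0, the score 8 mouse lying between the milder mice. S6 and S7, of like score, thus differed in the neutrophil, monocyte and NK sums.

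**Figure D4:**
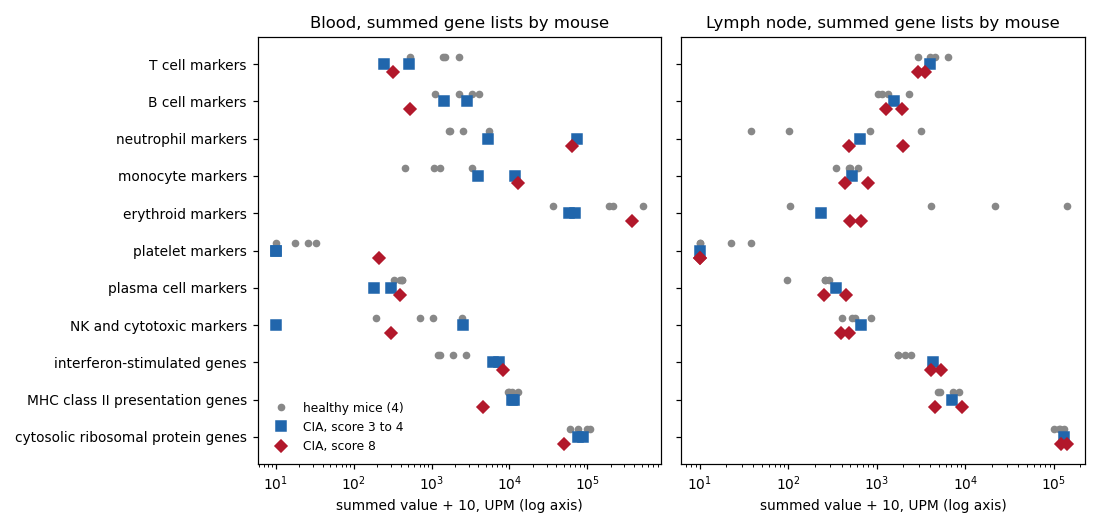
Summed value plus 10 UPM of 11 gene lists, on log axes, in blood (left) and lymph node (right) for each CIA mouse and the 4 healthy mice. In blood S2 lies below both milder mice for B cell and MHC class II lists and between them for neutrophil markers, and in node the score 8 mice lie on both sides of S7 for B cell, neutrophil and MHC class II lists.

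Ribosomal protein and stress-response genes had S2 lower in blood at about the 26.5% of all genes, so the counts single out neither list, and their direction turned with the scaling. Of 76 kept ribosomal protein genes 19 had S2 lower and 1 higher, with a median log2 difference of -0.71, and by the trimmed mean 1 of 75 was lower and 7 higher. Rpsa, which encodes a protein of the small subunit, stood at 52.3 UPM in S2, 642 in S6 and 426 in S7, with 299.9 to 656 in healthy mice. Of the 8 largest gaps downward 6 were pseudogenes or predicted genes and 2 had no symbol. Gm9372 stood at 10.2, 993 and 682 and the ribosomal pseudogene Rpl19-ps4 at 15.6, 696 and 584, and such copies may share reads with near-identical genes, so their values are uncertain. Of 35 kept immediate early and stress genes 11 had S2 lower, against 3 of 36 (1 higher) without globin genes in the totals and none of 36 (5 higher) by the trimmed mean. Jun, a subunit of the AP-1 factor, stood at 234, 720.0 and 767, and Cd69, an early activation marker that holds lymphocytes in tissue, at 44.2, 217 and 321. Of 18 naive lymphocyte and recirculation genes 6 had S2 lower, among them Klf2, the factor that drives exit into the blood, at 44.8, 190.4 and 224, and 1 of 19 and none of 18 did by the other scalings. Of 64 kept oxidative phosphorylation genes 1 was higher and 1 lower, against 16 of 67 and 43 of 69 higher by the other scalings.

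The counts of inflammatory mediators and other lists in blood are to be read against 2.94% of all blood genes higher and 26.5% lower on the first scaling. Of 12 kept cytokine and chemokine genes none was, against 4 and 7 of 12 higher without globin genes in the totals and by the trimmed mean. Of 15 kept TNF and NF-kB feedback genes 1, Nfkb1, had S2 lower, against 3 of 17 and 5 of 18 higher and none lower by the other scalings. Of 24 monocyte and macrophage genes 1, Vcan, had S2 higher, against 7 of 25 and 18 of 26. Vcan, a matrix proteoglycan of classical monocytes, stood at 80.9 UPM in S2, 0 in S6 and 23 in S7. Of 7 kept S100 genes none was past the gap, against 5 and 7 of 8 higher by the other scalings. Of 18 MHC class I presentation genes Psmb10 had S2 higher and H2-Q4 and H2-T24 had S2 lower. Psmb10 was at 0 in S6 and S7, was kept through S2 alone and could count only as higher. Without globin genes in the totals 1 of 19 was higher and 1 lower, and by the trimmed mean 5 of 18 were higher and none lower. Of 6 kept cell cycle genes 1, Tubb5, had S2 lower, whereas 2 of 8 and 4 of 9 were higher and none lower by the other scalings. Of 6 iron handling genes 1, Ltf, had S2 higher, against 1 of 7 and 6 of 7.

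In node no list had more than 1 member past the gap in either direction. Of 25 kept T cell receptor and signalling genes, 23 B cell identity genes, 15 MHC class II genes and 81 ribosomal protein genes none was past the gap, against 1.25% and 0.822% of all node genes. The summed T cell markers stood at 2942 UPM in S1, 3478 in S2 and 4012 in S7, and the B cell markers at 1925, 1275 and 1545, within the healthy ranges of 2924 to 6453 and 1021 to 2299. Neutrophil markers summed to 1957, 470.5 and 634, and S7 lay between the score 8 mice. The label of the organ fitted its markers, with 12 of 12 T cell and 12 of 12 B cell markers above 0 in S1 and S7.

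The node genes past the gap were single genes of several kinds. Xcl1, a chemokine made by activated CD8 T cells and NK cells, was listed at 0 in S1 and S2 and stood at 78.6 UPM in S7, with 79.8 and 76.8 in its 2 libraries and 36.1 to 186 in healthy mice. The score 8 mice were the ones without it. S100a4, a calcium-binding protein of memory T cells and myeloid cells, stood at 17.1, 0 and 75.2, with 49.4 to 88.3 in healthy mice, and was likewise near the healthy level in S7. Hspa1b, an inducible heat-shock chaperone, stood at 10.4, 0 and 103, and its S7 libraries held 41.3 and 191. In blood S100a4 had the opposite order, with 521 in S2, 305 in S6 and 69.1 in S7.

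Antibody class genes differed between the node mice. Ighg2b, the gamma 2b heavy chain, stood at 57.6 UPM in S1, 24.6 in S2 and 0 in both S7 libraries, and Ighg1, the gamma 1 chain, at 57.3, 0 and 334. All 4 healthy nodes listed both at 0. Ighg1 came from 1 of the 2 libraries of S7, at 569 against 0, and in 116 of its 369 barcodes. Cd63, a tetraspanin of lysosomes, likewise stood at 195 and 0 in the S7 libraries, Fscn1, an actin-bundling protein of mature dendritic cells, at 109 and 0, and Slpi, a protease inhibitor, at 168 and 0. For these 4 genes the gap to S1 and S2 thus rested on the 2CIA library of S7.

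When the gap was required to each S7 library by itself, 28 node genes were higher and 9 lower. The higher genes included Ngp, Ighg2b, Rnf2, Ahsa2 and Pno1, and the lower ones Xcl1, S100a4 and Hspa1b. Of these, Ngp, Ighg2b, Rnf2 and Ahsa2 were at 0 in both S7 libraries and Xcl1 in S1 and S2, so each was kept through the group in which it is high and could count in that direction only, as could 7 of the 64 higher genes in all. Rnf2, an E3 ligase subunit of Polycomb complex 1, stood at 44.6 UPM in S1, 55.9 in S2 and 0 in S7, with 0 to 17.3 in healthy mice. Ahsa2, a cochaperone of Hsp90, stood at 35.8, 40.7 and 0 but at 0 to 29.1 in healthy mice, and Uqcrc2, a core subunit of respiratory complex III, at 48.2, 57.8 and 10.3. These levels are near the low end of what was kept.

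**Figure D5:**
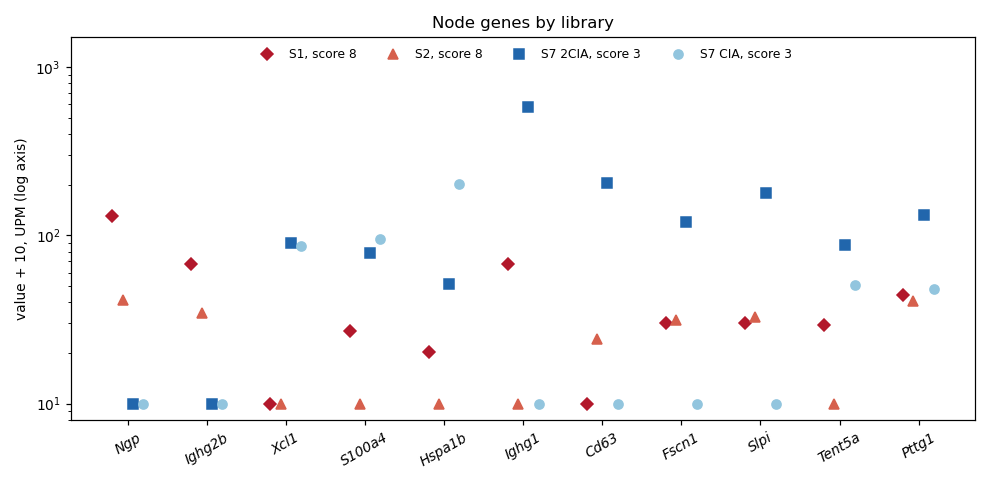
Value plus 10 UPM on a log axis for 11 node genes in the libraries of S1 and S2 (score 8) and the 2CIA and CIA libraries of S7 (score 3), each point a library. Both S7 libraries are at 0 for Ngp and Ighg2b and above S1 and S2 for Xcl1, S100a4 and Hspa1b, whereas Ighg1, Cd63, Fscn1 and Slpi are at 0 in the CIA library and high in the 2CIA library.

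Node barcodes were also split by whether T cell or B cell markers had the higher sum. T-leading barcodes made up 75.6% of those of S1, 81.6% of S2 and 74.3% of S7, with 57.4% to 93% in healthy mice. The 2 libraries of S7 held 91.6% and 50.9%, which enclosed the shares of both score 8 mice. Within T-leading barcodes 84 genes (1.66%) were higher and 67 (1.32%) lower at score 8, and within B-leading barcodes, of which S2 had 44, 340 (6.59%) and 231 (4.48%). Xcl1 stood at 0, 0 and 99.3 UPM in the T-leading barcodes of S1, S2 and S7 and at 0 in all B-leading ones. S100a4 stood at 15.5, 0 and 86.3 in T-leading and 22.6, 0 and 34.2 in B-leading barcodes. Ngp was found in both, with 12.4, 25.9 and 0 in T-leading and 507, 70.1 and 0 in B-leading barcodes, and Hbb-bs was higher in S1 and S2 in both, at 541, 404 and 169 in T-leading and 613, 545 and 180.4 in B-leading barcodes. Barcodes were smoothed over their neighbours, so a class can carry transcripts of other cells.

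Among upstream regulators that the study singled out, Ltf has been described. Il1b, a cytokine of activated myeloid cells, stood at 539 UPM in the blood of S2, 151 in S6 and 822 in S7, and the score groups overlapped. Apoe, a lipid carrier of macrophages, stood at 96.5, 264 and 0 in blood and 98.5, 23.7 and 33.1 in node. Tgfb1, a suppressive cytokine, stood at 11.9, 0 and 98.8 in blood and 13.1, 73 and 27.1 in node. Tnf was below the limit of 25 UPM in both organs, at 19.4, 0 and 0 in blood and 26.5, 0 and 40.7 in node, and Dsc3, a desmosomal cadherin, was listed at 0 in every mouse. Of the regulators named here, Ltf alone was past the gap, in blood.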

How the data were processed

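The pilot libraries of blood and lymph node were read from 1 matrix of signal values that the authors deposited: whole-number sums of unique transcripts over each barcode and its nearest neighbours (k = 12), not scaled to depth. Per the study's methods, reads were aligned to GRCm38, and barcodes needed 10000 reads, 400 transcripts, 200 genes and a mitochondrial share under 20%. The submitters' processing notes name STAR, Picard and bcl2fastq, and the builds GRCh38 and mm9. Smoothed sums are not independent counts, so no count model, interval or test was used.

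Libraries were grouped by the organ, mouse and arthritis score on their labels, and the node libraries of S7 were added up. The 7 CIA and 10 healthy libraries used 4556 of 8282 columns, and the 3726 columns of other organs were not used. Of 23013 gene rows, 21404 carried a symbol. Values were scaled to 1000000 units per mouse and organ (UPM), genes averaging 25 UPM or more over the CIA mice of an organ were retained, and 10 UPM was added before taking log2. The gap is the lowest value of the upper group minus the highest value of the lower group, and 1 on the log2 scale counted. Differences are of group means of log2 values. The trimmed mean left out 30% of ratios and 5% of levels at each end.

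Genes named in the text were those past the gap in both organs, those with the largest gaps in each organ, members of 36 gene lists and regulators singled out by the study, and some items that this rule names are not reported here. The members and lists were chosen with earlier results of these data known. The scripts (Python 3.11.15, numpy 2.4.6, pandas 2.3.3) were tested on simulated data. Alternatives were 2 other scalings, another offset, no filter, each distinct profile once, other uses of the S7 node libraries, and leaving out each mouse of a group of 2. S2 in blood and S7 in node, each alone in its group, could not be left out.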

Additional observations from a re-analysis of the deposited data

Results flagged for a closer look

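The values of healthy mice used as background were looked at for a mouse far from the other 3. Ltf in the blood of H4 stood at 8.2 UPM, with the other 3 healthy mice listed at 0. Hbb-bs in the node of H7 stood at 108279.7 UPM, with the others at 81.4 to 16301. Chance flags about 1 in 20 groups of normally distributed values, and 2 of 39 were found here. With 3 mice at 0 any value above 0 meets this rule, so that rate does not hold for Ltf. The Hbb-bs values are strongly skewed, so the rate need not hold for that gene either.

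For 10 of 79 named genes kept in both organs, every score 8 mouse lay above every milder mouse in 1 organ and below in the other, and the difference was not tested. Genes were named partly for their gaps, and the share over all genes kept in both organs was not counted. The count is therefore no result about these genes. Some node gaps were slight, as for Foxp1, at 400 and 347 UPM in S1 and S2 against 345 in S7, and Rpsa, at 712 and 760 against 707. The blood minus node log2 difference was negative for B cell genes, at -2.76 for Bank1 and -3.29 for Bcl11a, and for Foxp1 at -1.46, Ifi203 at -1.92, Rpl27a at -2.25 and Rpsa at -3.15. It was positive for Ly6c2 at 1.34, Ppib at 5.29, Psmb10 at 4.42 and S100a4 at 4.12. Mice S2 and S7 stand in both organs, and the blood values move with the scaling described in the report.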

How the results depend on the processing

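Counts below are genes past the gap, and the counts not given for a setting stayed within 1.5 times those of the report. Without globin genes in the totals, 488 blood genes were higher, 6 were higher in both organs and 1 was lower in both. By the trimmed mean of log ratios, 1107 blood genes were higher and 462 lower, and 7 were higher and 1 lower in both organs. By that scaling 53 node genes were higher and 63 lower, or 45.7% higher in place of 60.4%. With an offset of 1 UPM, 130 node genes were higher and 80 lower, and 5 were lower in both organs. With no filter, 3205 blood and 235 node genes were higher, 701 node genes were lower, and 74 were higher and 4 lower in both. Adding each distinct profile once left 1 gene lower in both. With S7 node from the 2CIA library alone, 99 node genes were lower and 1 gene was higher in both. With the gap required to each S7 node library, 28 node genes were higher and 9 lower, and 1 was higher and 0 lower in both. Restricting to genes above 0 in every CIA mouse, an alternative chosen after seeing the data, left 12 blood genes higher, and 1 higher and 1 lower in both, and none of the 5 granule precursor genes that remained was past the gap. For the settings that drop genes, fewer genes were compared, and otherwise the cause was not tested.

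Leaving out 1 mouse of a group of 2 at a time gave 512 to 733 blood genes higher and 1819 to 1919 lower, 266 to 377 node genes higher and 229 to 364 lower, and 3 to 7 genes higher and 7 to 36 lower in both organs. A group of 1 mouse widens these counts, since fewer values must clear the gap. Of 1397 values of named genes and marker sums under the alternatives, 1271 kept the sign they have in the report and 305 moved by at least the spread between mice. Among genes past the gap 6 values changed sign, all of them blood log2 differences by the trimmed mean, at 0.034 for Cd22, 0.063 for Foxp1, 0.0031 for H2-Q4, 0.025 for Ms4a1, 0.2 for Nfkb1 and 0.014 for Pttg1. No paired analysis was possible because the score groups of an organ hold different mice, and no test was made. Smoothing over neighbours and groups of 1 or 2 mice limit the precision.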
